A study of Drosophila melanogaster with 15 samples.

Results

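The genes described here are 8 Drosophila genes of the centriole, the centrosome and the spindle pole: SAK, ana2, Sas-6, asl, Sas-4, cnn, Plp and asp. They were chosen by name and function, with earlier results of these data known. All 8 are among the 8990 genes in the table of counts, and all 8 passed the filter on low counts that left 8981 genes. Each was followed across 5 genotypes of larval brain.

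RNA with poly(A) tails was sequenced from brains of female larvae late in the last larval stage, kept at 25 °C. There were 15 libraries, 3 for each genotype, each from 3 brains, and the replicates of a genotype came from different days and carry the batch numbers 4, 5 and 6. CDXY is C(1)DX/Y, an attached pair of X chromosomes with a Y, dissected 5 days after egg laying. CDXX is C(1)DX/X, the attached pair with a free X and thus 3 copies of X, dissected at 8 days. C2L is C(2L)SH1, a compound of the left arm of chromosome 2 (arm 2L), dissected at 5 days. T2L was read as C(2L)SH1/+, with 3 copies of 2L and dissected at 8 days; that reading rests on elimination, as it is the only stated genotype with no other label. Oregon is a standard laboratory strain, and no age is stated for it. CDXY and C2L are the study's controls, for CDXX and T2L in that order. Age and chromosome copies change together in both of those comparisons, so they cannot be told apart. The title of the series ties small brains under chromosomal instability to failing protein quality control and mitochondria.

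A centriole is a small barrel of microtubules, and a pair of centrioles wrapped in pericentriolar material forms a centrosome, the main microtubule-organising centre of many animal cells. New centrioles grow beside old ones in each cell cycle: the kinase SAK starts the process, ana2 and Sas-6 build the central cartwheel, and Sas-4 adds the wall. In larval brains, neuroblasts (neural stem cells) use their centrosomes to set the axis of asymmetric division, and human counterparts of many of these genes are known from inherited small-brain disorders.

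Total counts per library ran from 22949943 to 28272926. The lowest count of any of the 8 genes in any library was 197, for ana2, and the highest was 5913, for Plp, so the precision from counting is least for ana2 and Sas-6. Levels are CPM, each count relative to its library total, after scaling by the trimmed mean of M values (TMM). Fold changes were tested with the quasi-likelihood F test of edgeR over all 8981 genes, with all 15 libraries sharing 1 estimate of the spread. A gene is called when its p adjusted by Benjamini-Hochberg is under 0.05. The replicates are pools of brains collected on different days, so p-values measure the spread between such pools. The neuroblast, neuron and glia lists each had all their measured genes above 0 in every genotype. So did the muscle, fat body and salivary gland lists, and all these genes had passed the filter on low counts. Being above 0 therefore does not tell which tissue was present. The 10 neuron markers summed to 2020 to 3260 CPM by library. Most of the neuroblast sum came from pros, which young neurons and glia express too (91.9% to 93.5% by genotype), and the other 8 neuroblast markers together reached 352 to 575 CPM.

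All 8 genes lie off the chromosome arms whose copy number differs. In dm6 coordinates, SAK (FBgn0026371) lies on 3L from 21512141 to 21515887 and Plp (FBgn0086690) on 3L from 15066081 to 15094724, both on the minus strand. On 3R, asl (FBgn0261004) runs from 5603236 to 5606543 on the minus strand and Sas-4 (FBgn0011020) from 7151367 to 7154219 on the plus strand. Also on the plus strand of 3R are asp (FBgn0000140), from 24753849 to 24760513, and Sas-6 (FBgn0039731), from 29995357 to 29997034. On 2R, ana2 (FBgn0027513) spans 8898729 to 8900211 and cnn (FBgn0013765) spans 13439314 to 13450475, both on the minus strand. Counts were taken over exons of protein-coding genes that range from 2 merged exons in ana2 and Sas-4 to 19 in Plp.

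Per kilobase of annotated exon, the 8 genes were expressed at moderate and similar levels. The lowest was ana2, at 6.92 CPM per kilobase averaged over the libraries, followed by Sas-6 at 8.57, SAK at 9.05, asp at 10.5, Sas-4 at 10.6 and Plp at 12.5. The highest were asl at 17.5 and cnn at 17.7. On that scale 26.7% of tested genes were below ana2 and 54.8% were below cnn.

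Across the 5 genotypes, cnn and Plp were the members whose level differed by the test of any difference among groups, with adjusted p of 0.00749 and 0.00204. That is 2 of 8, where 51.3% of all tested genes were called. For the other members the adjusted p ran from 0.169 to 0.382. With the batch as a block, asl was called too, making 3, and without replicate 5 of C2L asp was called too.

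In CDXX against CDXY, Plp rose and cnn fell, and the other 6 genes did not pass the test. In T2L against C2L no member passed it. Called genes made up 43.9% of all tested genes in the first comparison and 15.7% in the second. Among genes placed off X and 2L, where all 8 members lie, the shares were 40% and 8.13%. The count of 2 of 8 in CDXX is below the share of genes called at large, but so few genes cannot separate it from that share. Over all genes the median log2 fold change was 0.02 and -0.01 in these comparisons. Over the 8 members it was 0.17 in CDXX and -0.16 in T2L, with 6 and 1 of the 8 values above 0. Several of those values lie so close to 0 that another scaling turns their sign, as given for SAK, asl and Sas-4 below.

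**Figure D1:**
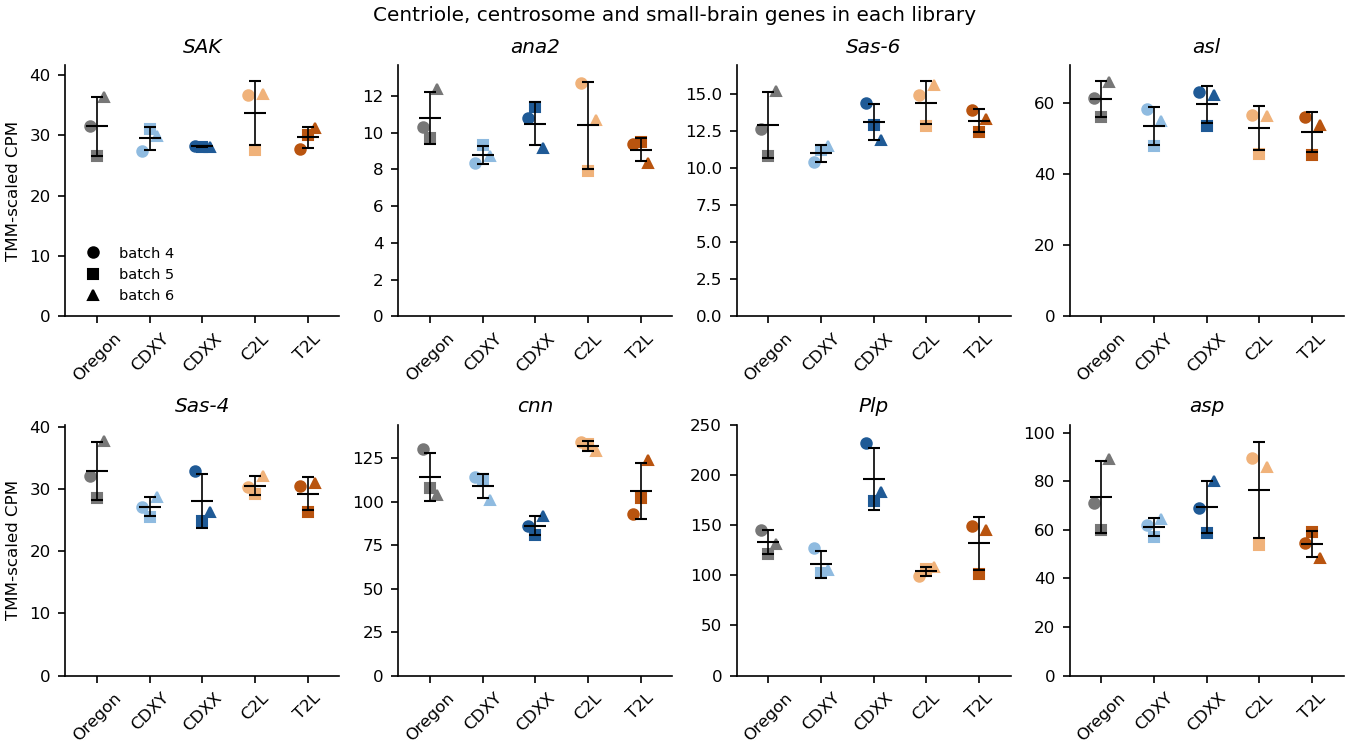
TMM-scaled CPM (y axis, from 0) of each of the 8 genes in the 15 libraries, by genotype on the x axis. Points are libraries with a shape for each batch, and the horizontal marks and bars are the mean and SD of 3 libraries; Plp in CDXX, at 174 to 232 CPM, stands above every other library, and cnn in CDXX, at 80.9 to 91.7 CPM, below every other library.

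Among the genes that start and build centrioles, none passed the test in either main comparison. SAK, the fly Polo-like kinase 4 that sets off centriole duplication, was at 31.5, 26.6 and 36.4 CPM in Oregon batches 4, 5 and 6. It was at 27.4, 31 and 29.9 CPM in CDXY and at 28.3, 28.1 and 28.1 CPM in CDXX. In C2L it was at 36.7, 27.6 and 36.8 CPM, and in T2L at 27.8, 30 and 31.2 CPM.

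The ranges of CDXX and CDXY overlapped for SAK, as did those of T2L and C2L. SAK had a log2 fold change of -0.06 in CDXX (95% interval -0.34 to 0.21; adjusted p = 0.703) and -0.18 in T2L (-0.46 to 0.09; adjusted p = 0.343). When genes on X and 2L were kept out of the scaling, the CDXX value became 0.02. SAK shares 609 exon bases with M6 on the opposite strand, and the library kit does not mark strand, so reads there could come from either gene. M6 fell in CDXX, with a log2 fold change of -0.75 (SE 0.16; adjusted p = 0.00276), and its log2 fold change in T2L was 0.11 (adjusted p = 0.657).

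The cartwheel factor ana2, the counterpart of human STIL that SAK phosphorylates, had the lowest level of the set. Its means were 10.8 ± 1.41 CPM in Oregon, 8.8 ± 0.486 in CDXY, 10.5 ± 1.15 in CDXX, 10.4 ± 2.38 in C2L and 9.08 ± 0.647 in T2L (SD, n = 3 in each). C2L batch 5 was low at 7.91 CPM beside 12.7 and 10.7 CPM in the other C2L libraries. For ana2 the log2 fold change was 0.25 in CDXX (95% interval -0.11 to 0.61; adjusted p = 0.237) and -0.2 in T2L (-0.56 to 0.16; adjusted p = 0.45). Only 70 exon bases are shared with a gene on the opposite strand, Sec31, which fell in CDXX (log2 fold change -0.47; adjusted p = 0.00132).

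Sas-6, the protein whose rings form the cartwheel, was at 10.4, 11.2 and 11.5 CPM in CDXY and at 14.4, 12.9 and 11.9 CPM in CDXX. The ranges did not overlap, as for 53.5% of all tested genes in that comparison. The log2 fold change was 0.25 (95% interval -0.04 to 0.53), above 0 in each of 3 batches, and did not pass the test (adjusted p = 0.148). In C2L Sas-6 was at 14.9, 12.8 and 15.6 CPM and in T2L at 13.9, 12.4 and 13.3 CPM. Those ranges overlapped, with a log2 fold change of -0.13 (-0.41 to 0.16; adjusted p = 0.54). Between the control genotypes, CDXY was lower than C2L without overlap (log2 fold change -0.39; adjusted p = 0.198). There, 20% of all tested genes did not overlap, in either direction. Sas-6 shares 74 exon bases with CG15525 on the opposite strand, which fell in CDXX (-0.5; adjusted p = 0.00602).

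The gene asl encodes the counterpart of human CEP152, which brings SAK to the centriole. Its means were 61.1 ± 5.02 CPM in Oregon, 53.5 ± 5.35 in CDXY, 59.5 ± 5.21 in CDXX, 52.9 ± 6.24 in C2L and 51.7 ± 5.63 in T2L (SD, n = 3 in each). In every genotype the batch 5 library was the lowest, between 45.3 and 55.9 CPM. Its log2 fold change was 0.15 in CDXX (95% interval -0.1 to 0.41; adjusted p = 0.311) and -0.03 in T2L (-0.29 to 0.22; adjusted p = 0.871). The T2L value turned to 0.03 when genes on X and 2L were kept out of the scaling. With the batch as a block, asl was called in CDXX against T2L (log2 fold change 0.21; adjusted p = 0.0173) and in T2L against Oregon (-0.24; adjusted p = 0.0187), both missed without it (adjusted p = 0.189 and 0.216).

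Sas-4, the counterpart of human CPAP, links the centriole wall to the pericentriolar material. Its means were 32.9 ± 4.64 CPM in Oregon, 27.2 ± 1.59 in CDXY, 28.1 ± 4.32 in CDXX, 30.6 ± 1.52 in C2L and 29.3 ± 2.62 in T2L (SD, n = 3 in each). CDXX batch 4, at 33 CPM, lay above the other CDXX libraries at 24.9 and 26.4. For Sas-4 the log2 fold change was 0.05 in CDXX (95% interval -0.22 to 0.32; adjusted p = 0.762) and -0.06 in T2L (-0.33 to 0.21; adjusted p = 0.769). Without CDXX replicate 4 the CDXX value became -0.08.

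The 2 members called in CDXX against CDXY, cnn and Plp, act in the pericentriolar material and moved in opposite directions. The scaffold protein cnn, the counterpart of human CDK5RAP2, forms the outer matrix that recruits the machinery of microtubule nucleation in mitosis. It was at 86.1, 80.9 and 91.7 CPM in CDXX batches 4, 5 and 6 and at 114, 113 and 101 CPM in CDXY. Every CDXX library was thus below every CDXY library. Of all tested genes, 53.5% did not overlap in that comparison, in either direction. The log2 fold change was -0.34 (SE 0.11; 95% interval -0.59 to -0.1; adjusted p = 0.026). This call is lost when the scaling leaves out genes on X and 2L (log2 fold change -0.26; adjusted p = 0.0761). It is also lost without CDXY replicate 4 or 5 (log2 fold change -0.34 and -0.32; adjusted p = 0.0584 and 0.0797) or without CDXX replicate 4 or 5 (-0.34 and -0.3; adjusted p = 0.0608 and 0.0781), where the fold stayed close to the reported one.

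In C2L, cnn was at 134, 133 and 129 CPM, and in T2L at 93, 102 and 124 CPM. All T2L libraries were below all C2L libraries, as in 37.5% of tested genes that did not overlap there in either direction, with batch 6 close to C2L. The log2 fold change was -0.31 (SE 0.11; 95% interval -0.55 to -0.07), and the test was not passed (adjusted p = 0.079). DESeq2 called it (adjusted p = 0.0366), as did edgeR without T2L replicate 6 (log2 fold change -0.44; adjusted p = 0.0209). Oregon was at 130, 108 and 104 CPM, inside the span of the control genotypes.

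In order of mean level, cnn stood at 132 ± 2.76 CPM in C2L, 114 ± 13.8 in Oregon, 109 ± 7.11 in CDXY, 106 ± 16.1 in T2L and 86.2 ± 5.43 in CDXX (SD, n = 3 in each). Of the neighbours in that order that were compared, C2L with Oregon (adjusted p = 0.615) and Oregon with CDXY (0.837) did not differ beyond their spread. CDXY and T2L were not compared, and their ranges overlap. CDXX was below T2L by a log2 fold change of -0.3 (adjusted p = 0.0489), a call lost in 9 of 13 alternatives, the batch block among them (adjusted p = 0.0613).

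Plp, the fly pericentrin-like protein, anchors pericentriolar material to the centriole and in larval neuroblasts takes part in making the mother and daughter centrosomes unequal. Its levels were 232, 174 and 183 CPM in CDXX batches 4, 5 and 6 against 127, 102 and 105 CPM in CDXY. The ranges of CDXX and CDXY did not overlap, as for 53.5% of all tested genes. The lowest CDXX library was well above the highest library of any other genotype. Plp thus rose by a log2 fold change of 0.82 (SE 0.15; 95% interval 0.49 to 1.15; adjusted p = 0.00147), with 0.87, 0.78 and 0.8 in the separate batches. This was called in all 13 alternatives, with log2 fold changes of 0.68 to 0.91 and adjusted p of 2.94e-06 to 0.00987. Of all tested genes, 87.2% had a lower log2 fold change in that comparison.

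In C2L Plp was at 99, 106 and 108 CPM, and in T2L at 149, 101 and 145 CPM. T2L batches 4 and 6 were above every C2L library, and batch 5 lay among them. The log2 fold change of 0.34 (SE 0.15; 95% interval 0.01 to 0.67) was not called (adjusted p = 0.155). Without T2L replicate 5 it was 0.5 (adjusted p = 0.0364). Oregon was at 145, 121 and 131 CPM, so T2L and Oregon had nearly the same mean (log2 fold change -0.01; adjusted p = 0.979).

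The order of mean levels for Plp was 196 ± 31.2 CPM in CDXX, 133 ± 11.9 in Oregon, 132 ± 26.7 in T2L, 111 ± 13.6 in CDXY and 104 ± 4.54 in C2L (SD, n = 3 in each). CDXX was above Oregon (log2 fold change 0.57; adjusted p = 0.0138), a call that needs Oregon replicate 5 (adjusted p = 0.0562 without it) and CDXX replicate 4 (0.0594 without it). CDXY and C2L did not differ beyond their spread (0.09; adjusted p = 0.845), and T2L with CDXY was not compared. Plp shares 352 exon bases with sstn on the same strand, a gene at 16.3 to 18.8 CPM on average whose log2 fold change in CDXX was -0.19 (adjusted p = 0.277).

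The spindle-pole gene asp, the counterpart of human ASPM, focuses microtubule ends at the poles, and its loss gives flies with small brains. It was at 61.8, 57 and 64.3 CPM in CDXY and at 69.2, 58.7 and 80.3 CPM in CDXX, with overlap. For asp that gave a log2 fold change of 0.18 (95% interval -0.23 to 0.6; adjusted p = 0.454). C2L libraries were split, at 89.5, 53.6 and 85.9 CPM, and T2L libraries were at 54.4, 59.2 and 48.6 CPM. C2L batch 5 lay inside the T2L range, while the other C2L libraries were far above it.

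The log2 fold change of asp in T2L was -0.5 (SE 0.19; 95% interval -0.91 to -0.08) and was not called (adjusted p = 0.0995). Batches 4 and 6 gave -0.72 and -0.82, and batch 5 gave 0.14. Without C2L replicate 5 the value was -0.7 (adjusted p = 0.0184). Oregon was at 71.2, 59.9 and 89.2 CPM, also lowest in batch 5. In order, the means were 76.3 ± 19.8 CPM in C2L, 73.4 ± 14.8 in Oregon, 69.4 ± 10.8 in CDXX, 61.1 ± 3.7 in CDXY and 54.1 ± 5.31 in T2L (SD, n = 3 in each). No compared neighbours in that order were called.

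**Figure D2:**
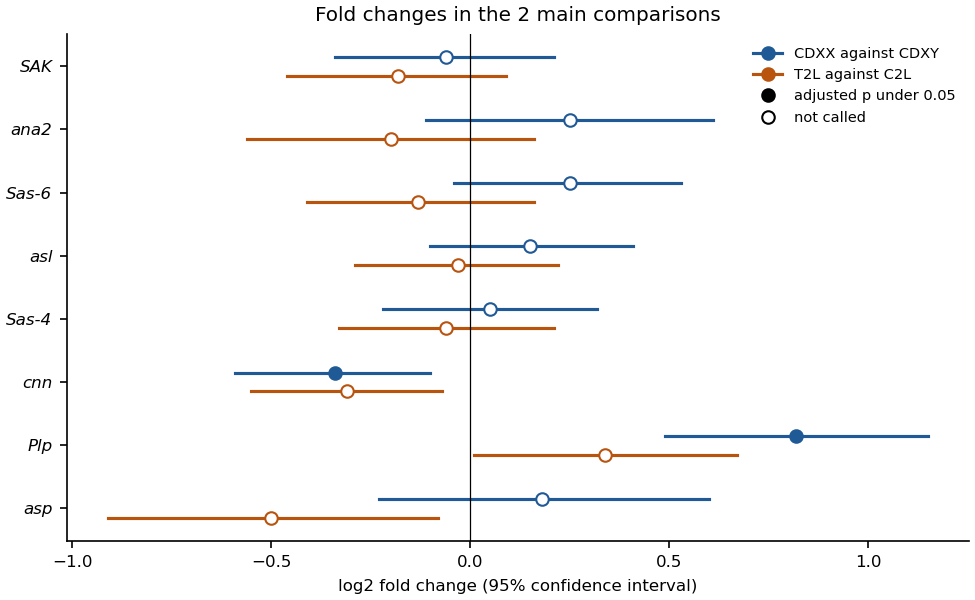
Log2 fold change (x axis) of each of the 8 genes in CDXX against CDXY and in T2L against C2L, with lines for the 95% confidence interval of the edgeR fit. Filled points have an adjusted p under 0.05: Plp at 0.82 and cnn at -0.34 in CDXX, with no filled point in T2L.

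Whether the response to 3 copies of X differs from that to 3 copies of 2L was tested as the difference between the main comparisons. No member was called by edgeR, where 22.3% of all tested genes were, and DESeq2 called none either. At an unadjusted p under 0.05 there were 2 by each tool. In edgeR these were asp, with a difference in log2 fold change of 0.68 (95% interval 0.09 to 1.27; adjusted p = 0.0881), and Plp, at 0.48 (0.02 to 0.95; adjusted p = 0.124). With the batch as a block Plp was called (0.5; adjusted p = 0.0479). Without C2L replicate 5, asp (0.88; adjusted p = 0.0132) and ana2 (0.61; adjusted p = 0.0452) were called. For cnn the difference was -0.03 (-0.37 to 0.31; adjusted p = 0.904), which leaves room for unequal changes of that size in either direction.

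In CDXX against T2L, which were of the same age, Plp was higher by a log2 fold change of 0.58 (SE 0.15; adjusted p = 0.0104) and cnn lower by the value given above. This is 2 of 8, where 37.6% of tested genes were called. In CDXX against Oregon the same pair was called of the 8, with cnn at -0.4 (SE 0.11; adjusted p = 0.0156), where 35.3% of tested genes were called. The cnn call was lost without Oregon replicate 4 (-0.3; adjusted p = 0.0688). The comparisons share the CDXX libraries, so they are not independent.

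In T2L against Oregon no member was called by either tool, against 13% of tested genes. At an unadjusted p under 0.05 there was 1 member in edgeR, asp at -0.44 (adjusted p = 0.163), and 2 in DESeq2. The genotypes without an extra copy differed little: 2.74% of genes were called in CDXY against C2L, 0.857% in CDXY against Oregon and 2.14% in C2L against Oregon. No member was called in these by edgeR or DESeq2, with 2, 1 and 1 members at an unadjusted p under 0.05 by either tool. In edgeR these were Sas-6, given above, and cnn (-0.27; adjusted p = 0.319) in CDXY against C2L. Against Oregon they were Sas-4 in CDXY (-0.27; adjusted p = 0.434) and Plp in C2L (-0.35; adjusted p = 0.454).

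Other genes of the same structures were taken from lists of centriole assembly, pericentriolar material, spindle pole and microcephaly genes. They were split by chromosome arm, since X and 2L copies differ between genotypes. On X, 9 of 10 such partners rose in CDXX and none fell, where 57.6% of all tested X genes rose. Their median log2 fold change was 0.66, beside 0.45 for the arm. On 2L, 7 of 12 rose in T2L and none fell, where 51.9% of the arm's genes rose, and the median was 0.41 beside 0.47. The arm-wide shares are given as description, and no test of the lists was run.

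Off these arms, where the 8 members lie, 2 of 34 partners rose and 5 fell in CDXX, and none rose and 2 fell in T2L. For all tested genes off these arms the shares were 15.7% higher and 24.3% lower in CDXX, and 3.24% and 4.89% in T2L. When the scaling left out genes on X and 2L, 6 of the 34 rose and 5 fell in CDXX. The share of called genes that were higher, over all tested genes, also moved with that scaling, from 52.5% to 64.6% in CDXX and from 74.1% to 88.4% in T2L.

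**Figure D3:**
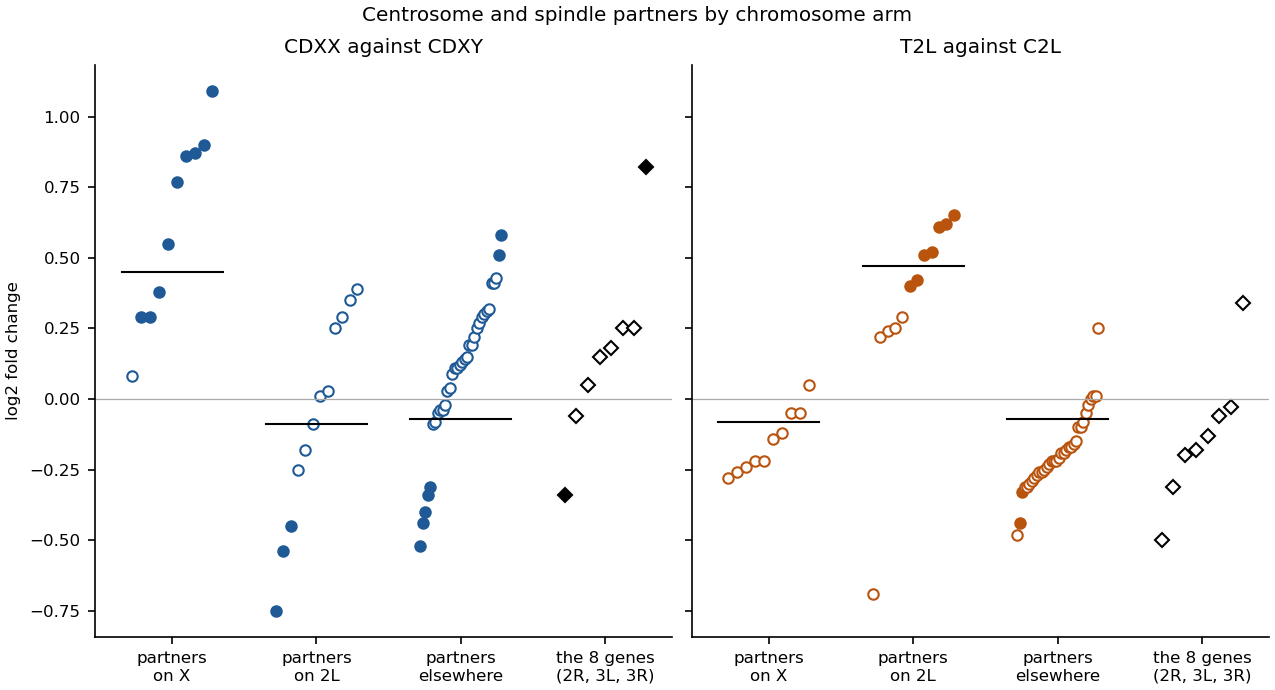
Log2 fold change (y axis) of centrosome and spindle partners on X (10), on 2L (12) and elsewhere (34), and of the 8 genes as diamonds, in CDXX against CDXY on the left and T2L against C2L on the right. Filled symbols were called and horizontal lines are the median of all tested genes of the arm; the X partners lie above 0 in CDXX and 11 of the 12 partners on 2L above 0 in T2L.

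The partners of SAK and ana2 in building centrioles followed this division. Cp110 on X, which caps the growing centriole end, rose in CDXX (log2 fold change 0.87; adjusted p = 0.00154). Its partner Cep97 on 2L rose in T2L (0.52; adjusted p = 0.00394), as did Rcd4, a centriole protein on 2L (0.65; adjusted p = 0.00976). In CDXX the value for Cep97 was -0.18 without a call, and Rcd4 fell (-0.45). Off both arms, slmb fell in CDXX (-0.4; adjusted p = 0.00197); it encodes the ubiquitin ligase component that marks SAK for destruction. Rcd5, first named in a screen for loss of centrosomal cnn, rose there (0.51; adjusted p = 0.00323).

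The gamma-tubulin ring complex, which nucleates microtubules and is gathered at mitotic centrosomes with the help of cnn, is encoded by genes on several arms. Grip128, on X, was at 45.3, 43 and 52.6 CPM in CDXX and at 24.6, 24.7 and 26.4 CPM in CDXY. The ranges did not overlap, as for 53.5% of all tested genes (log2 fold change 0.9; adjusted p = 0.00015). Grip91, also on X, rose by a log2 fold change of 0.55 (adjusted p = 0.00146) and Grip84 by 0.38. In T2L the values for Grip128, Grip91 and Grip84 were -0.12, -0.22 and -0.22, none called. The members on 2L were the ones called in T2L. Grip71 was at 51.9, 59.2 and 56.7 CPM in T2L and at 38.1, 32.7 and 38.2 CPM in C2L (0.62; adjusted p = 0.00172).

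Likewise gammaTub23C, the gamma-tubulin of somatic cells, was at 94.1, 115 and 86 CPM in T2L against 76.2, 63.8 and 79.8 CPM in C2L (0.42; adjusted p = 0.0223). Grip75 rose there too (0.4). In CDXX the values for these 3 genes were -0.25, 0.25 and 0.03, none called. Grip163, on 3L, fell in CDXX (-0.34) and was at -0.17 in T2L without a call. Thus 3 subunits rose and 1 fell in CDXX, and 3 others rose in T2L.

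Of the other genes of the pericentriolar material, Map60 fell in CDXX (-0.52; adjusted p = 0.00324) and Cp190, also a chromatin insulator protein, fell in T2L (-0.33; adjusted p = 0.0207) and in CDXX (-0.31). At the spindle pole, mei-38 (1.09; adjusted p = 0.00272) and mud (0.86; adjusted p = 0.00295) rose in CDXX. Both lie on X; mud encodes the counterpart of NuMA, which ties the spindle to the cell cortex. Patronin, a binder of microtubule minus ends on 2R, fell (-0.44; adjusted p = 0.00435), and dgt2, an augmin subunit on 2L, rose in T2L (0.61; adjusted p = 0.0237).

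Among other counterparts of human microcephaly genes, bchs (-0.75; adjusted p = 0.00136) and Wdr62 (-0.54; adjusted p = 0.00595) fell in CDXX, both on 2L. Wdr62 acts at the spindle pole, and its log2 fold change in T2L, where its arm has an extra copy, was 0.24 without a call. Ankle2, on X, rose in CDXX (0.29; adjusted p = 0.00731), and in T2L Cap-D3 on 2L rose (0.51; adjusted p = 0.00654) and hd on 3R fell (-0.44; adjusted p = 0.0492).

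Over the 15 libraries, the members did not move as 1 group. The closest other genes to each were found by Pearson's r of log2 CPM, as a description of libraries that share genotype, age, batch and depth. For asp they were sub, a mitotic kinesin, at 0.94 and spd-2, which recruits cnn to the centriole, at 0.926. For cnn they were the dynactin subunit gene DCTN3-p24 at 0.957 and Bet1 at 0.945, the same pair by Spearman's rho. For Plp they were CG12204 at 0.913 and Syx4 at 0.906, both on X, and by Spearman's rho GlcAT-I and Peritrophin-A, on X as well.

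For the centriole builders, SAK was closest to dnk (0.895) and CG8478 (0.887), and ana2 to eIF6 (0.914) and Nup44A (0.893). Sas-6 was closest to Zfrp8 (0.922) and to the augmin gene msd1 (0.83), asl to CG5504 (0.904) and Apc2 (0.894), and Sas-4 to Dpit47 (0.867) and mRpL2 (0.816). Between members, r was highest for ana2 with asp at 0.71 and lowest for cnn with Plp at -0.647. After group means were subtracted, cnn and Plp had an r of 0.268, so their opposition lies between genotypes and not between libraries of a genotype.

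The members differed in how they went with the mitosis genes, a comparison added after the values had been seen. The summed level of 20 mitosis genes, none of them a member, was 1570, 1130 and 1590 CPM in C2L and 1480, 1110 and 1640 CPM in Oregon, lowest in batch 5 in both. It was 1170, 1420 and 1190 CPM in T2L, 1200, 1200 and 1260 CPM in CDXY and 1290, 1290 and 1340 CPM in CDXX. Against this sum over 15 libraries, Pearson's r was 0.848 for asp, 0.844 for SAK, 0.746 for ana2 and 0.637 for Sas-6. It was 0.472 for Sas-4, 0.404 for asl, 0.175 for cnn and -0.11 for Plp. Spearman's rho was 0.789 for asp, 0.786 for SAK, 0.0571 for cnn and -0.0929 for Plp. For ana2, Sas-6, asl and Sas-4 rho was 0.675, 0.529, 0.436 and 0.293.

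Without the 2 libraries farthest from the median sum, r fell to 0.42 for Sas-6, 0.245 for asl and 0.109 for Sas-4. For asp it was 0.754, for SAK 0.723, for ana2 0.67, for cnn 0.106 and for Plp -0.0238. The low asp value of C2L batch 5 thus came with a low mitosis sum in that library. The part of this in the T2L comparison of asp was not tested. In whole brains, fewer dividing cells and less RNA per cell cannot be told apart.

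**Figure D4:**
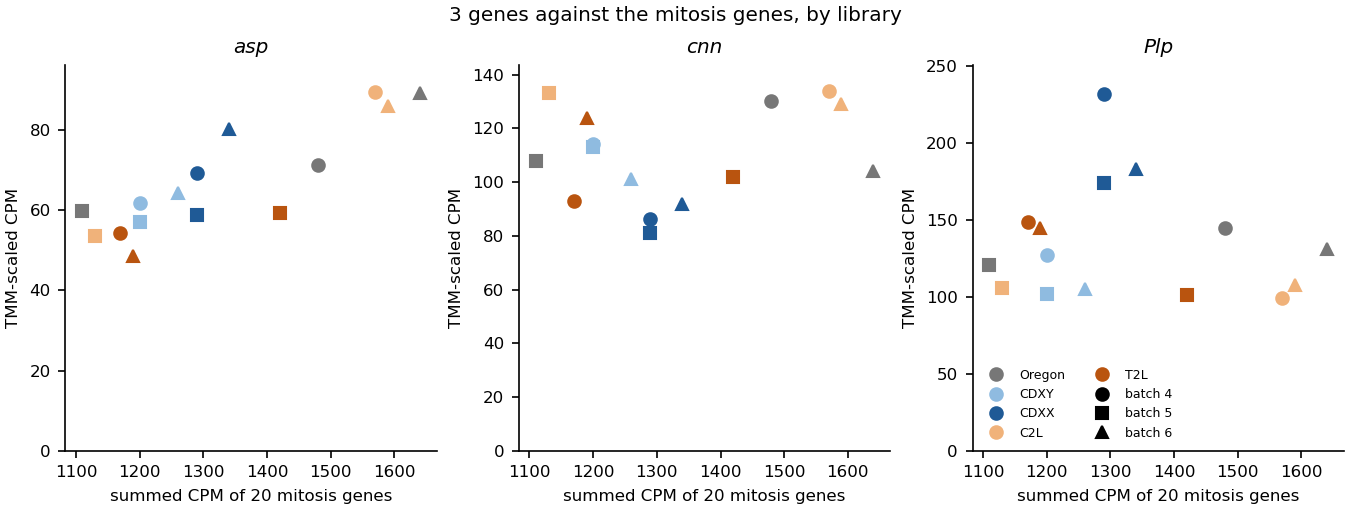
TMM-scaled CPM of asp, cnn and Plp (y axes, from 0) against the summed CPM of 20 mitosis genes (x axis, not from 0) in the 15 libraries, coloured by genotype with a shape for each batch. For asp the libraries line up from low to high (r = 0.848). For Plp (r = -0.11) the CDXX libraries lie apart from the rest at a middle mitosis sum. For cnn (r = 0.175) the CDXX libraries are the lowest, up to 91.7 CPM, with T2L batch 4 close above at 93 CPM.

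Lists of other cell types moved with the genotypes in which Plp and cnn differed. The summed level of 7 glia markers was 2070 to 2170 CPM in CDXX and 901 to 1140 CPM in CDXY, with 3 markers higher and 1 lower, or 57.1% called where 43.9% of all tested genes were. Much of that rise came from Gs2, a gene on X whose mean was 220 CPM in CDXY and 1100 CPM in CDXX. The other 6 markers summed to 975 to 1080 CPM in CDXX and 744 to 903 CPM in CDXY. Their log2 fold changes were mixed, with 0.99 for nrv2 and 1.07 for moody but -0.35 for wrapper and, uncalled, -0.55 for alrm and -0.1 for Eaat1. In T2L the glia sum was 1200 to 2150 CPM against 696 to 1240 CPM in C2L. There 3 markers were higher, or 42.9% called where 15.7% of all tested genes were. Within T2L the glia sum was 2150, 1480 and 1200 CPM in batches 4, 5 and 6, and Plp was at 149, 101 and 145 CPM, so batch 4 was highest in both and the lowest batch differed.

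The sum of 8 muscle markers was 169 to 523 CPM in CDXX and 82.3 to 117 CPM in CDXY. Of these 6 were called higher, or 75% where 43.9% of all tested genes were called. The muscle sum was highest in CDXX batch 5, the library with the lowest Plp of the CDXX libraries. For 8 fat body and hemocyte markers the sum was 542 to 1900 CPM in CDXX and 39.1 to 243 CPM in CDXY. Of these 4 were called higher, or 50%, which is near the 43.9% of all tested genes called. No marker of these lists was at 0 in any whole genotype. The part of these cell types in the changes of Plp and cnn was not tested. Of 9 neuroblast markers none was called in either main comparison by edgeR. Without pros, their summed levels were 397 to 428 CPM in CDXX and 379 to 429 CPM in CDXY.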

How the data were processed

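Values are whole-number counts per gene deposited by the authors in a single table of 15 libraries. Per the submitters' processing notes, Trim Galore, STAR 2.7.10a and featureCounts were used with the build dm6; the strand setting and the handling of reads that map to several places are not given in the sources used here. Per the labels' protocols, libraries were made with NEBNext poly(A) selection and the Ultra II RNA kit.

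From these deposited counts, edgeR 4.0.16 (R 4.3.3) was run with TMM factors, filterByExpr by genotype (8981 of 8990 genes kept), 1 mean per genotype and the robust quasi-likelihood F test, with Benjamini-Hochberg adjustment over all genes tested. Log values used a prior count of 2. Intervals of fold changes come from the same fit. DESeq2 1.42.0 was an alternative, with other filters, other scaling factors, a batch block, the compared groups alone and each library left out. The fit was tested on simulated data. Gene positions are from the Ensembl annotation of the same build. No pair of libraries agreed within sampling noise.

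The labels give each replicate number as a batch shared by the genotypes, so replicate numbers pair the samples. Deviations from genotype means had a median correlation of 0.129 over 30 pairs of the same batch and -0.066 over 60 pairs of different batches.

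The 8 genes and all lists were chosen with earlier results of these data known. Lists were those of other centriole, pericentriolar, spindle-pole and microcephaly genes, mitosis, DNA replication, neuroblast polarity, and markers of neuroblasts, neurons, glia, muscle, fat body and hemocytes, and salivary gland, discs and ring gland; 162 of 166 listed names were measured. Named are all 8 genes, from each list up to 3 called genes with the lowest adjusted p in each main comparison, and the 2 genes most like each member; exceptions were made for the gamma-tubulin ring, for overlapping neighbours, for genes of the lists with a call in another comparison and for markers given beside a list sum or median, chosen after their values were seen.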

Additional observations from a re-analysis of the deposited data

Results flagged for a closer look

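None of the 8 genes passed the test of the difference between the main comparisons. Of the 154 other listed genes 30 did, each with an adjusted p under 0.05 in edgeR, which is 19.5% where 22.3% of all tested genes were called. By arm, 15 of these 30 were on X, all with a positive difference. Another 9 were on 2L, all with a negative difference. Off both arms 3 differences were positive and 3 negative. A negative difference need not be a fall in CDXX. On 2L, numb was at 0.03 in CDXX and 0.65 in T2L, and Cap-D3 at 0.01 and 0.51. The values below are the log2 fold change in CDXX against CDXY minus that in T2L against C2L. Centriole genes were Cp110 at 0.82, Klp10A at 0.35, Rcd5 at 0.5, Cep97 at -0.7 and Rcd4 at -1.11. Genes of the pericentriolar material were Grip128 at 1.01, Grip91 at 0.77, Grip84 at 0.59 and Grip71 at -0.87. At the spindle pole they were mei-38 at 1.38, mud at 1.11, dgt4 at 0.9 and Wdr62 at -0.78. Other microcephaly counterparts were bchs at -1.03, Ankle2 at 0.34, Cap-D3 at -0.5 and hd at 0.75.

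In the lists of dividing cells the differences were 1.32 for Ndc80 and -0.63 for Bub1 among mitosis genes, and 1.14 for Mcm6, 0.86 for Mcm3 and 0.75 for Mcm2 among replication genes. Polarity genes were baz at 0.92, par-6 at 0.52, numb at -0.63 and pins at -0.46. Markers of cell types were wrapper at -0.73 and alrm at -1.7 (glia), Lsp1alpha at 4.52 (fat body) and nub at -1.32 (imaginal disc).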

How the results depend on the processing

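Of the counts of members called, 122 stayed within 1.5 times the reported one over the alternatives and 22 moved. For T2L against C2L, DESeq2 called 1 member. Scaling without genes on X and 2L left 1 in CDXX against CDXY and 1 in CDXX against T2L; no filter on low counts and the compared groups alone also left 1 there. With the replicate block, which pairs libraries of a batch, 1 was called in the difference of the main comparisons and 1 in T2L against Oregon; calls it changed in other comparisons are given with each gene, and it changed no other member's call. With single libraries left out, counts ran from 1 to 2 in CDXX against CDXY, 0 to 1 in T2L against C2L, 0 to 2 in the difference, 1 to 2 in CDXX against T2L, 1 to 2 in CDXX against Oregon and 2 to 3 among the 5 groups. Without CDXX replicate 4, Sas-4 was called against Oregon (-0.36; adjusted p = 0.0479) in place of Plp. Log2 fold changes of uncalled genes that changed sign were SAK (0.022) in CDXX and asl (0.033) and Sas-4 (0.004) in T2L with that scaling; Sas-4 in CDXX without CDXX replicate 4 (-0.081); asl in T2L without C2L replicate 4 (0.009), C2L replicate 6 (0.015) or T2L replicate 5 (0.053); and Sas-4 in T2L without T2L replicate 5 (0.011). With single libraries left out, Sas-4 in CDXX ranged from -0.081 to 0.13, asl in T2L from -0.129 to 0.053 and Sas-4 in T2L from -0.104 to 0.011. The cause was not tested. That scaling moved the median log2 fold change of all genes from 0.02 to 0.1 in CDXX and from -0.01 to 0.05 in T2L. Over the same alternatives, added for these counts after seeing the data, partners on X that rose in CDXX numbered 8 to 9, those on 2L that rose in T2L 3 to 7, and those elsewhere 1 to 6 higher and 4 to 5 lower in CDXX and 0 to 5 lower in T2L. By Spearman's rho, 7 of the 8 genes had other closest genes in whole or in part. With 3 libraries a genotype, the interval given with each uncalled gene bounds the change that could have been missed. In T2L, lower calls ran from 0 to 6 of 14 DNA replication genes and from 0 to 3 of 20 mitosis genes.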

Other observations

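Genes of cell division outside the centrosome were called in small numbers in both main comparisons. Of 20 mitosis genes 2 rose and 1 fell in CDXX against CDXY: the kinetochore gene Ndc80 (log2 fold change 0.98; adjusted p = 0.000724) and tum (0.61; adjusted p = 0.0177) rose, and the checkpoint kinase Bub1 (-0.4; adjusted p = 0.00461) fell. In T2L against C2L 1 rose, pim, the fly securin (0.58; adjusted p = 0.0396). Of 14 DNA replication genes, Mcm6 (0.71; adjusted p = 0.00659) and Mcm3 (0.46; adjusted p = 0.0418) rose in CDXX and E2f1 fell (-0.31; adjusted p = 0.0333), while in T2L Orc1 (-0.67; adjusted p = 0.0186) and Mcm2 (-0.58; adjusted p = 0.0364) fell. Called mitosis and replication genes made up 15% and 21.4% of their lists in CDXX, where 43.9% of all tested genes were called, and 5% and 14.3% in T2L, where 15.7% were. Both replication calls in T2L lie off X and 2L, where 8.13% of genes were called. In T2L the median log2 fold change was -0.36 over the 14 replication genes, of which 2 were above 0, and -0.19 over the 20 mitosis genes, beside -0.01 for all tested genes. Those 2, CycE (0.24) and RnrL (0.22), lie on 2L. The summed level of the replication genes was 1340, 1550 and 1330 CPM in T2L batches 4, 5 and 6. In C2L it was 1830, 1390 and 1780 CPM, so batch 5 went the other way, as it did for the mitosis sum.

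Of 14 genes of neuroblast polarity, which orient the spindle that centrosomes build, 4 rose and 4 fell in CDXX, or 57.1% called beside 43.9% of all tested genes. Of the 4 that rose 3 lie on X. They include baz (0.85; adjusted p = 0.000928) and par-6 (0.63; adjusted p = 0.000486), which rose, and pins (-0.72; adjusted p = 0.000254), which fell. In T2L 2 rose, both on 2L, numb (0.65; adjusted p = 0.00263) and l(2)gl (0.58; adjusted p = 0.0255), which is 14.3% beside 15.7% of all tested genes.

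Of 10 neuron markers, para (1.81; adjusted p = 0.00049) and Gad1 (1.89; adjusted p = 0.0116) rose in CDXX, with para on X. The list median there was -0.18, with 3 of 10 above 0 and uncalled values of -0.48 for elav, -0.43 for brp and -0.34 for VAChT. In T2L Syt1, on 2L, rose (0.62; adjusted p = 0.0242). Glia markers called in CDXX include Gs2 (2.33; adjusted p = 0.0058) and nrv2 (0.99; adjusted p = 0.0054), which rose, and wrapper (-0.35; adjusted p = 0.0046), which fell; in T2L nrv2 (1.15; adjusted p = 0.00677), alrm (1.15; adjusted p = 0.0379) and wrapper (0.38; adjusted p = 0.00854) rose. Muscle markers with the lowest adjusted p in CDXX were Mlc2 (3.93; adjusted p = 0.000351), up (3.23; adjusted p = 0.00622) and Mlc1 (3.23; adjusted p = 0.00942), and Mlc2 rose in T2L (2.41; adjusted p = 0.0106). Mean levels of Mlc2, up and Mlc1 were 5.97, 1.96 and 0.83 CPM in CDXY. In CDXX they were 91.1 ± 22.4, 18.4 ± 16.8 and 7.81 ± 7.33 CPM (SD, n = 3). The spread of up and Mlc1 there was nearly as large as their mean. Of fat body and hemocyte markers, Col4a1 (3; adjusted p = 0.00327), vkg (3.15; adjusted p = 0.00336) and Lsp1alpha (2.45; adjusted p = 0.0133) rose in CDXX and Lsp1gamma fell in T2L (-2.79; adjusted p = 0.0237). Lsp1alpha rose from a mean of 1.07 CPM in CDXY to 5.87 CPM in CDXX. Lsp1gamma was at 10.7 ± 12.2 CPM in C2L and 1.54 ± 0.497 in T2L (SD, n = 3). In CDXX 6 of 8 log2 fold changes of that list were above 0, with uncalled values of -0.81 for Fbp1 and -0.28 for Lsp1gamma. In T2L 3 of 8 were above 0, all uncalled: 2.48 for NimC1, 1.07 for vkg and 0.94 for Col4a1. Of 11 salivary gland, disc and ring gland markers none rose and 6 fell in CDXX, or 54.5% called beside 43.9% of all tested genes. Among them were nub (-1.21; adjusted p = 0.00234), Sgs8 (-3.05; adjusted p = 0.0114) and Sgs4 (-4.12; adjusted p = 0.0115). Mean levels of Sgs8 and Sgs4 were low, at 3.52 and 12.6 CPM in CDXY and 0.423 and 0.729 CPM in CDXX. The list was mixed, with 4 of 11 log2 fold changes above 0, all uncalled: 1.83 for phtm, 0.26 for vg and 0.19 for gl and for sad. None was called in T2L by edgeR.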
